A study of Sus scrofa with 16 samples.

Results

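The comparison described here sets the highest oral dose of oestradiol-17β against the middle dose in endometrium, the inner layer of the uterus, taken from pregnant sows. It takes 8 of the 16 small RNA libraries of the series: sows 8 to 11, fed 10 µg/kg body weight/day and labelled NOEL, and sows 12 to 15, fed 1000 µg/kg/day and labelled High dose, each library from 1 sow. These labels define the groups. All sows were pregnant and were examined on day 10 after feeding had begun at insemination, so the groups share the pregnancy and differ in dose, and the carrier of both, ethanol, was given without oestradiol to the 4 control sows. The series also holds 4 libraries at 0.05 µg/kg/day. Endometrium is a mixed tissue, and in bulk RNA fewer cells of a type and less RNA per cell cannot be told apart. The question was what the 1000 µg/kg/day dose adds to the 10 µg/kg/day dose in miRNAs, read at 18 to 26 nt, and in longer fragments of 28 to 36 nt.

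MicroRNAs are short RNAs that guide Argonaute proteins to messenger RNAs, mostly through the seed, bases 2 to 8 from the 5′ end, and lower the translation and stability of their targets. In endometrium they accompany the shift from proliferation to secretion, and several are known to respond to ovarian steroids or to take part in decidualization and implantation in other species. In the pig, oestrogen secreted by the conceptuses soon after the stage examined here is the signal by which the mother recognises pregnancy. Fragments longer than miRNAs include 5′ pieces of transfer RNAs, which nucleases cut in the anticodon loop, and pieces of Y RNA and ribosomal RNA.

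Reads of 18 to 26 nt that share their first 18 nt were counted as 1 group, shown by its most abundant read. A miRNA name used here is that of the seed family, the other bases were not matched to a reference, and reads of 1 family are numbered within it. Across both doses, 128 such groups led 89 of the 94 seed families looked for. The reads on which the description below turns are printed first, with the seed in capitals: the 2 most abundant, the red cell miRNA, and those whose difference between the doses was among the largest or had the smallest p-values.
miR-21: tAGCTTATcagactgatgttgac
miR-143: tGAGATGAagcactgtagctct
miR-101: tACAGTACtgtgataactgaag
miR-19, read 1: tGTGCAAAtccatgcaaaactgt
miR-542: tGTGACAGattgataactga
miR-203: gTGAAATGtttaggaccactag
miR-375: tTTGTTCGttcggctcgcgtga
miR-451: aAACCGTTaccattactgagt
miR-135, read 2: tATGGCTTttcattcctatgtga
miR-190, read 1: tGATATGTttgatatattaggtt

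Each library of the 10 µg/kg/day sows held 9285240 to 14945018 reads and each of the 1000 µg/kg/day sows 4497096 to 14085579, and 22 nt was the most common length in all 8 libraries. Reads of 18 to 26 nt made up 64.6 ± 14.4% of the library at 10 and 62.5 ± 8.56% at the higher dose (SD, n = 4 and 4; control 59.04 ± 7.32%). Reads of 28 to 36 nt made up 18.97 ± 6.99% and 17.8 ± 2.76%. None of 7 measures of composition passed its test between the doses. The smallest p was 0.429, for the share of the 10 most abundant miRNA groups, by a two-sided exact permutation test that can give 0.0286 at best (adjusted p 0.886). The length profiles fell into 3 classes that cut across the doses: in class A fewer than 8% of reads are 17 to 19 nt long, and the rest divide by whether reads of 40 nt upward stay under 5% (class B) or exceed it (class C). Sows 8, 9 and 12 were in class A, sows 10, 11 and 15 in class B and sows 13 and 14 in class C, which the 10 µg/kg/day group lacks.

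**Figure D1:**
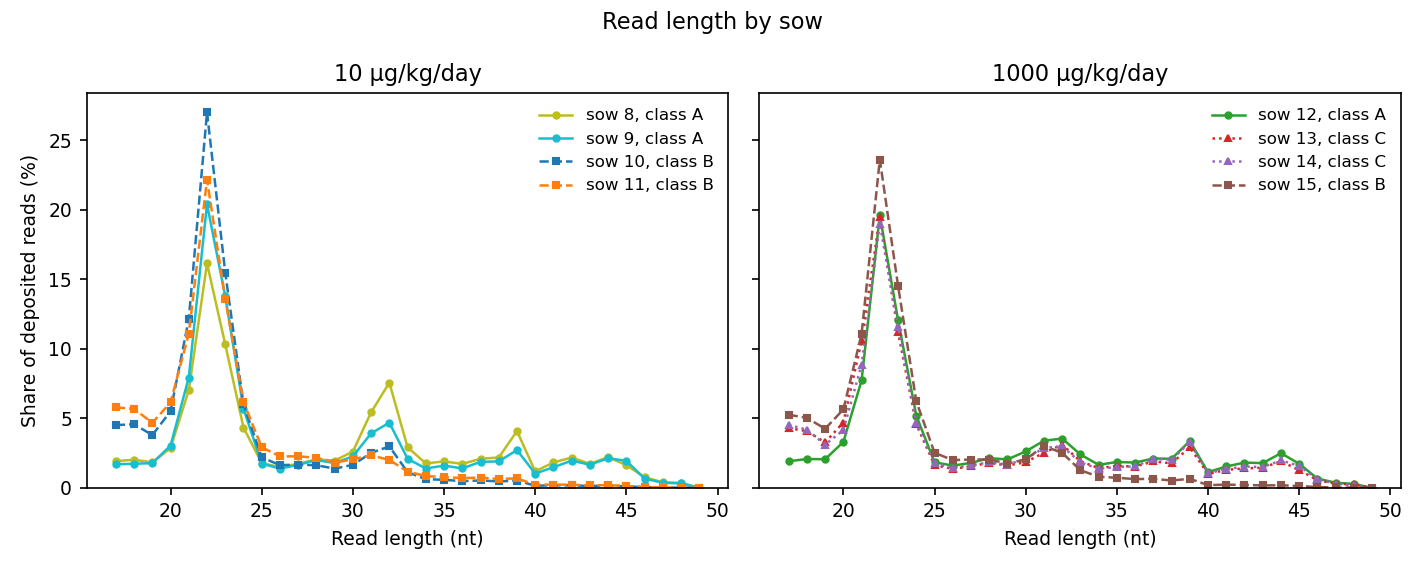
Share of each library's deposited reads (%, vertical axis) at each read length (nt, horizontal axis) in the 4 sows at 10 and the 4 sows at 1000 µg/kg/day; line style and symbol give the length class. Every library peaks at 22 nt, and sows 8, 9, 12, 13 and 14 keep reads of 40 nt or more that sows 10, 11 and 15 nearly lack.

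No miRNA passed the test between the doses, edgeR's quasi-likelihood test with Benjamini-Hochberg adjustment over all 11123 read groups. Of these, 0 passed an adjusted p under 0.05 (0.0%), against 542 at an unadjusted p under 0.05, 181 higher (1.63%) and 361 lower (3.25%) at 1000 µg/kg/day, and DESeq2 called 0 as well, with 496 at an unadjusted p under 0.05. Of the 128 leading miRNA groups, 52 lay higher and 76 lower at the higher dose, with a median log2 difference of -0.084, beside -0.007 over all groups tested. Without TMM scaling these medians were 0.030 and 0.055, and scaled by all deposited reads -0.0057 and 0.00094. The direction of a small difference is therefore relative to the TMM scale. Of the 128, 5 (3.91%) were at an unadjusted p under 0.05, all lower, beside 3.25% lower of all groups. In 0 of the 128 (0.0%) were the 4 sows of 1 dose all apart from the 4 of the other, beside 1.04% higher and 1.71% lower of all groups. The 95% confidence interval of the difference lay within 1 on the log2 scale in both directions for 90 of the 128 groups, and for 18 of the 20 most abundant. For the others a change of 2-fold in 1 direction stayed inside the interval. On simulated counts for this comparison, the test recovered 12% of 100 groups changed 2-fold and 83% of 100 changed 4-fold, among 10721 groups.

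miR-21, an abundant miRNA that restrains several tumour suppressor genes, was the most abundant read group at both doses. It stood at 136092, 233328, 129798 and 72829 CPM in sows 8 to 11 and 121678, 85221, 98936 and 81702 CPM in sows 12 to 15. In these TMM-scaled CPM sow 9 was the highest of the 8 and sow 11 the lowest, both at 10 µg/kg/day, and the groups overlapped. The means were 143012 ± 66596 CPM at 10 and 96884 ± 18124 CPM at the higher dose (SD, n = 4 and 4), with 119799 ± 43662 in control, and the log2 difference was -0.56 (95% CI -1.17 to 0.044), with an adjusted p of 0.988 by edgeR. Without sow 9 the difference was -0.22, and without TMM scaling it was -0.41.

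miR-143, typical of smooth muscle and fibroblasts, had 62044, 78643, 63573 and 31395 CPM in sows 8 to 11 and 43349.8, 128809, 55783 and 33543 CPM in sows 12 to 15. Sow 13 alone stood above all others, and the remaining 3 sows at 1000 lay inside the range of the 10 µg/kg/day group. The log2 difference was 0.15 (95% CI -0.64 to 0.94), and it turned to -0.41 without sow 13 and to -0.43 with the length class as a covariate. Its partner miR-145, made from the same transcript, had means of 3516 and 2954 CPM at 10 and 1000 µg/kg/day. The log2 difference of miR-145 was -0.25, and -0.48 with the length class as a covariate. It ranged from -0.47 to -0.068 when 1 sow was left out. With all sows and no covariate the 2 lay on opposite sides of zero. Both lay below zero with that covariate, and also without sow 13.

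The other groups among the 20 most abundant lay within -0.40 and 0.25 on the log2 scale. Both miR-10 reads, whose genes lie in the HOX clusters, were lower on average at 1000 µg/kg/day, at -0.40 and -0.28, and the second was -0.045 without sow 9. The lowest sow of the first, at 23728 CPM, was sow 11 at the lower dose. miR-148 and miR-152, which target the DNA methyltransferase DNMT1, had a log2 difference of -0.39, which was -0.037 without sow 9. The 5 let-7 reads, a family that restrains proliferation, had differences from -0.18 to 0.25 (median 0.048), with 3 of 5 higher. miR-27, miR-26, miR-99 and miR-100, and the 2 leading miR-30 reads had differences of -0.044, -0.019, 0.17, 0.064 and 0.17. The group means of miR-27 were 20846 and 20214 CPM, and those of miR-26 17824 and 17595 CPM. With the length class as a covariate the difference of miR-27 was -0.30. The interval of miR-26, -0.51 to 0.48, and that of miR-27, -0.52 to 0.43, leave out a 2-fold change either way.

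**Figure D2:**
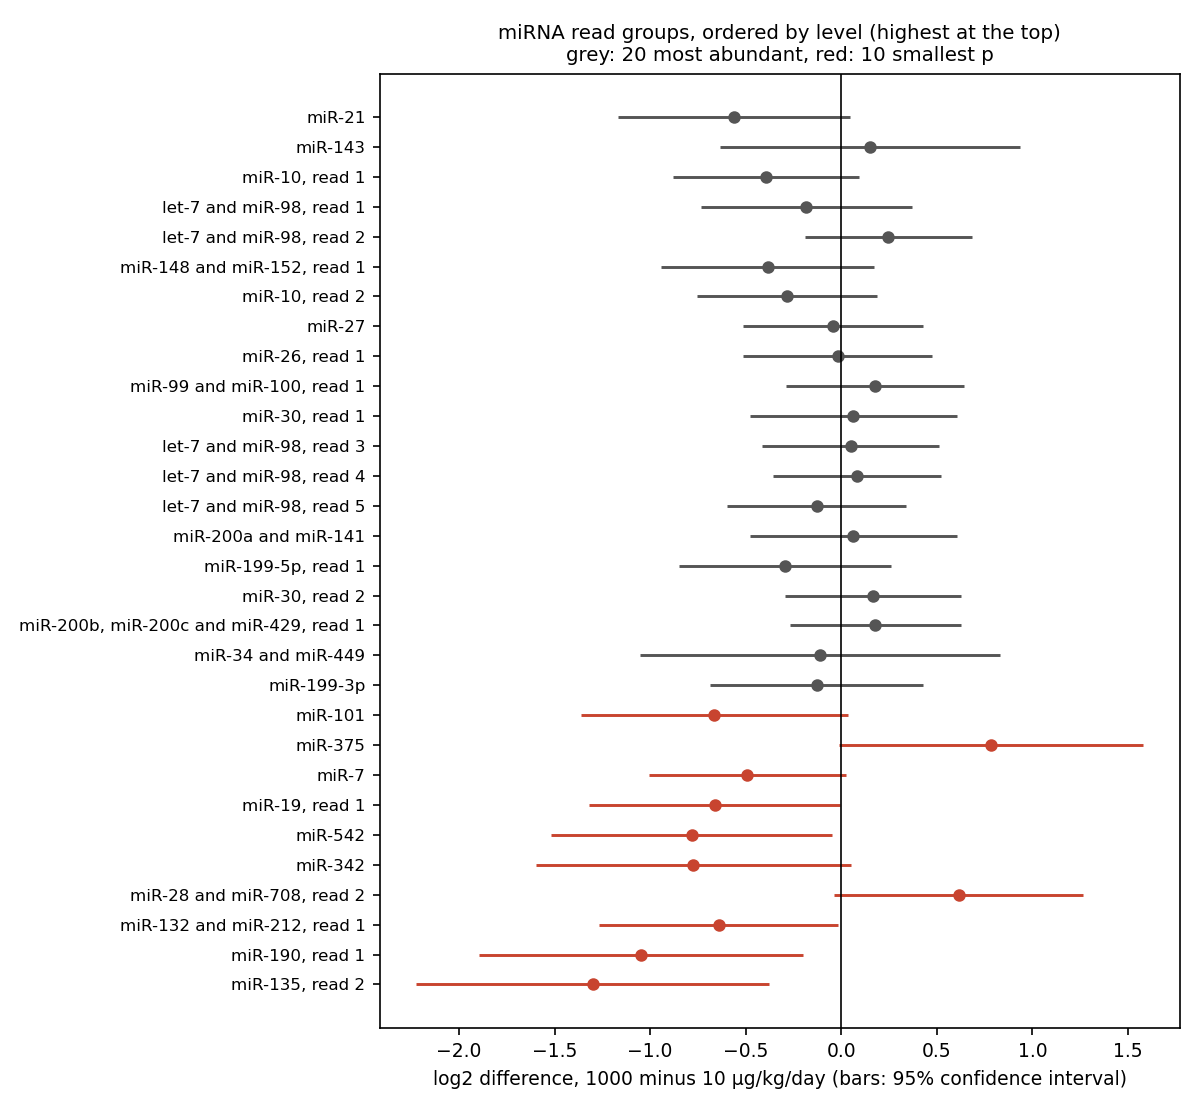
log2 difference of 1000 minus 10 µg/kg/day (horizontal axis) with its 95% confidence interval for the 20 most abundant miRNA read groups (grey) and the 10 with the smallest p-values (red), ordered by level with the highest at the top. Intervals of 5 red groups end below zero: miR-135 read 2, miR-190 read 1, miR-542, miR-132 and miR-212 read 1, and miR-19 read 1. After adjustment, 0 of the 30 groups passed.

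The 10 groups with the smallest p-values held 8 that were lower and 2 that were higher on average at 1000 µg/kg/day, none with an adjusted p below 0.96. They are named for their rank and not for a passed test. The second read of miR-135, which targets the uterine regulator HOXA10, came first. It stood at 29.7, 28.1, 14.6 and 7.91 CPM in sows 8 to 11 and 7.81, 8.25, 9.23 and 7.05 CPM in sows 12 to 15. All 4 sows at 1000 lay at 9.23 CPM or below, and sow 11 at the lower dose, at 7.91, lay among them. Its log2 difference was -1.30 (95% CI -2.22 to -0.38), with an unadjusted p of 0.0084 and an adjusted p of 0.96 by edgeR. The first miR-135 read was more abundant, at 234 against 14.1 CPM on average over both doses, and had a difference of 0.090. The first read of miR-190, which lies within the talin gene TLN2, was next. It had 29.1, 49.9, 20.8 and 13.4 CPM in sows 8 to 11 and 20.3, 12.97, 13.6 and 7.96 CPM in sows 12 to 15. Sow 15 was the lowest and sow 9 the highest, and sows 12 and 14 lay inside the range at 10 µg/kg/day. The log2 difference was -1.05 (95% CI -1.89 to -0.20), and -0.63 without sow 9. The second miR-190 read, at 17.5 against 21.0 CPM on average over both doses, had a difference of -0.074.

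miR-542, which targets the survival gene BIRC5, was read at 694, 1005, 675 and 303 CPM in sows 8 to 11 and 502, 224, 394 and 435 CPM in sows 12 to 15. Sow 11 was again the low sow at 10 µg/kg/day, and the 3 others there lay above all 4 sows at the higher dose. The difference was -0.78 (95% CI -1.52 to -0.051), and control sows averaged 403 CPM, beside 669.5 and 389 CPM at 10 and 1000 µg/kg/day. miR-19, a member of the miR-17-92 cluster, had 992, 1086, 704 and 384 CPM in sows 8 to 11 and 649, 541, 483 and 328 CPM in sows 12 to 15. The same 3 sows lay above those at 1000 µg/kg/day and sow 11 among them, with a difference of -0.66 (95% CI -1.32 to -0.0052). miR-101, which targets the histone methyltransferase EZH2 and the prostaglandin enzyme COX-2, had 8219.9, 12270.1, 6877 and 3325 CPM in sows 8 to 11 and 5227, 5907, 4427 and 3816 CPM in sows 12 to 15. Sow 11 was the lowest of all 8 and sows 8 to 10 were the highest, with a difference of -0.66 (95% CI -1.36 to 0.035), and -0.34 without sow 9.

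Lower on average were also miR-132 and miR-212, induced by the transcription factor CREB, with 29.1 and 18.7 CPM at 10 and 1000 µg/kg/day and a log2 difference of -0.64. miR-7, which targets the EGF receptor, had 985 and 700.3 CPM (-0.49), and miR-342, hosted by the gene EVL, had 96.1 and 55.9 CPM (-0.77). On the TMM scale, sow 11 was the lowest sow at 10 µg/kg/day in all 8 of these lower groups and lay below the mean of the 1000 µg/kg/day group. That sow also had the lowest share of 18 to 26 nt reads with a listed seed, 50.9% against 62.1 to 69.5% in sows 8 to 10, and the highest share of 17 to 19 nt reads, 16.1%, and the part of either in these differences was not tested. The pair that lay higher were miR-375 and the second read of miR-28 and miR-708.

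miR-375, known from pancreatic islets and secretory epithelium, stood at 895, 1486, 1054 and 966 CPM in sows 8 to 11 and 939, 3165, 1761 and 1721 CPM in sows 12 to 15. Sow 13 was the highest, sows 14 and 15 lay above the 10 µg/kg/day group, and sow 12 lay within it. The difference was 0.79 (95% CI -0.0095 to 1.58) with an adjusted p of 0.988 by edgeR, and 0.25 with the length class as a covariate. The second read of miR-28 and miR-708 averaged 58.1 and 88.8 CPM, with a difference of 0.61. miR-203, which drives differentiation of stratified epithelium, had 605, 899, 557 and 364 CPM in sows 8 to 11 and 1457, 1283, 489 and 1356 CPM in sows 12 to 15. Sows 12, 13 and 15 lay above all sows at the lower dose and sow 14 below 3 of them, and the control mean, 1164 ± 844 CPM (SD, n = 4), was close to that at 1000 µg/kg/day, 1146 ± 444. Its difference, 0.92 (95% CI -0.17 to 2.01), was the largest upward one of the 128 groups, and 1.06 with the length class as a covariate.

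**Figure D3:**
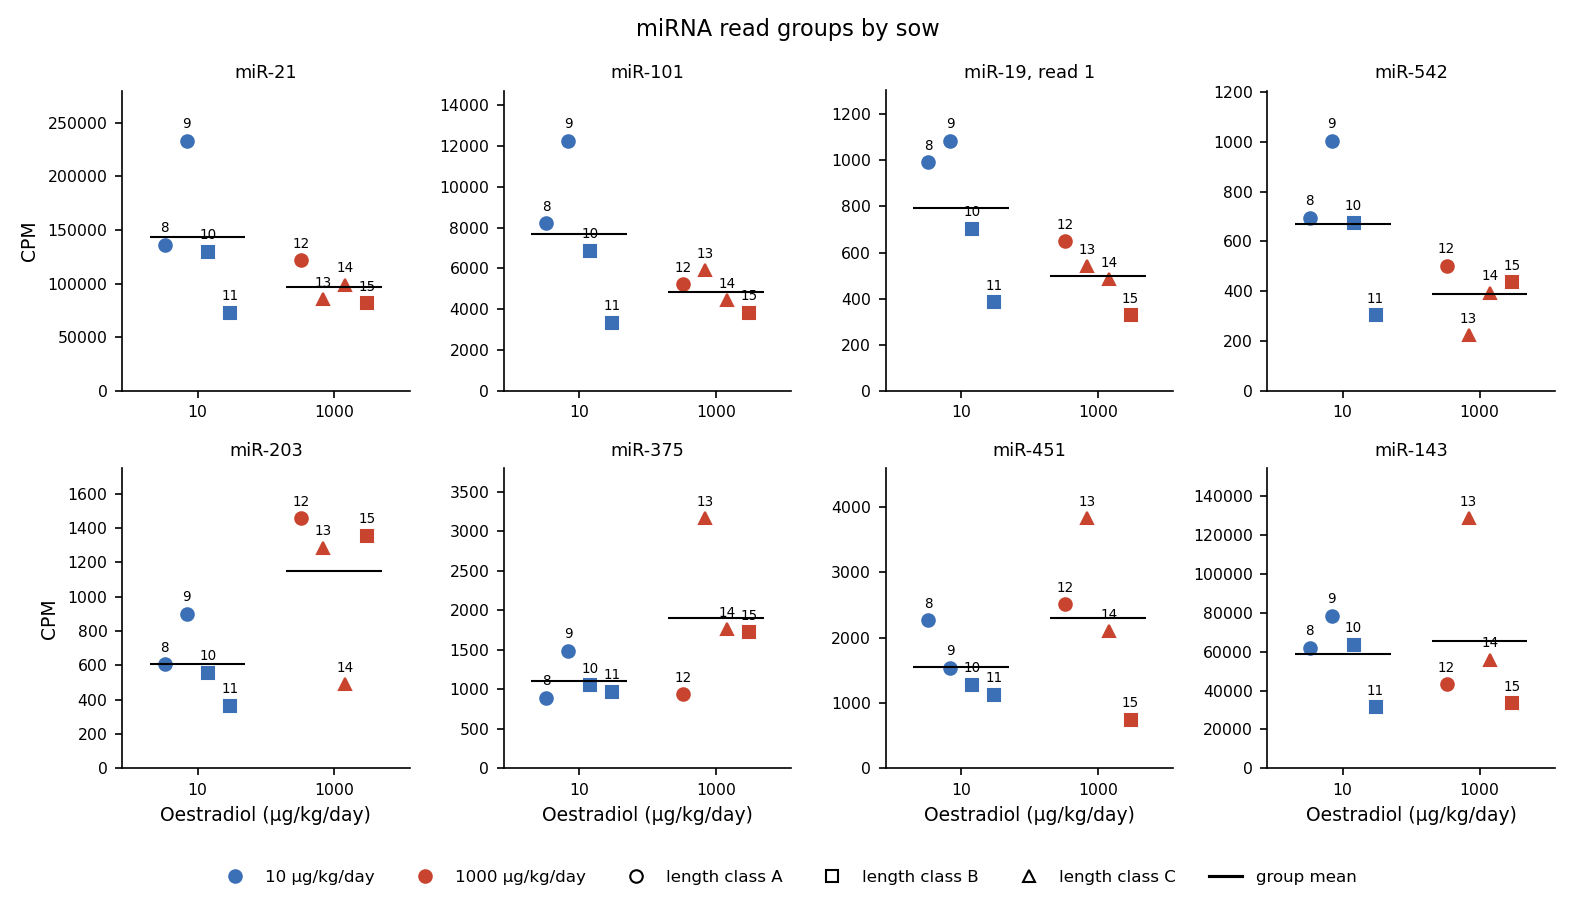
TMM-scaled CPM (vertical axis, from 0) of 8 miRNA read groups in each sow at 10 and 1000 µg/kg/day (horizontal axis). Numbers are sows, symbols the length class and lines the group mean. The doses overlap in every panel: sow 11 sits low among the sows at 10 µg/kg/day for miR-21, miR-101, miR-19 and miR-542, and sow 13 sits high for miR-375, miR-451 and miR-143.

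Lists of miRNAs known from cell types describe what else the tissue held at each dose. Epithelial miR-200 members (3 read groups) summed to 18351 to 39107 CPM at 10 and 23276 to 37267 CPM at 1000 µg/kg/day, with 3 of 3 higher, median log2 difference 0.18. The first read of miR-200b, miR-200c and miR-429 averaged 9505 and 10748 CPM at 10 and 1000 µg/kg/day and that of miR-200a and miR-141 11926 and 12457 CPM, so miRNAs of epithelium were present in every library. The list of stratified epithelium, miR-203 and miR-205, had 2 of 2 higher, median log2 difference 0.50, with miR-205 at 0.081. miR-34 and miR-449, known from ciliated cells, summed to 4784 to 15660.4 CPM at 10 and 5688 to 13063 CPM at 1000 µg/kg/day, a log2 difference of -0.11. The stromal list of miR-199 and miR-214 had 0 of 4 higher, median log2 difference -0.31. miR-199-5p averaged 12031 and 9807 CPM and miR-199-3p 9929 and 9079 CPM. Of the 2 smooth muscle groups 1 was higher (median -0.051), and both endothelial miR-126 arms lay at -0.011 and -0.094. Over all 128 groups the median was -0.084, and 0 members of any list passed. The list medians here and below are relative to the TMM scale.

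Among markers of blood and of other tissues, all 3 red cell groups and all 3 of skeletal and cardiac muscle were highest in sow 13. miR-451, made in red cells, stood at 2266, 1537, 1278 and 1124 CPM in sows 8 to 11 and 2512, 3826, 2093 and 746 CPM in sows 12 to 15. Sow 13 was the highest and sow 15 the lowest of the 8, both at 1000 µg/kg/day. The difference was 0.56 (95% CI -0.14 to 1.26), 0.20 without sow 13 and 0.25 with the length class as a covariate, and all 3 red cell groups lay higher on average, miR-144 at 0.23, with summed levels of 1221 to 2393 CPM at 10 and 813 to 4103 CPM at 1000 µg/kg/day. The leukocyte list (miR-142, miR-223, miR-150, miR-155 and miR-146) had 1 of 7 higher, median log2 difference -0.37, with summed levels of 474 to 1354 CPM at 10 and 487 to 1036 CPM at 1000 µg/kg/day. miR-146, a feedback inhibitor of NF-kB signalling, had 2 reads that lay on opposite sides, -0.69 and 0.37. Muscle miRNAs (miR-1 and miR-206, miR-133 and miR-499) had 3 of 3 higher, median log2 difference 0.51, which was -0.41 with the length class as a covariate. miR-1 and miR-206 reached 1308 CPM in sow 13 and 133 in sow 15, and miR-499 averaged 152 and 185 CPM. Liver miR-122 averaged 19.9 and 22.4 CPM, and miR-9, known from brain, 1759 and 1577 CPM. No leading read group had the seed of miR-124, miR-208 or the embryonic miR-302 family. The part of sow 13's blood and muscle miRNAs in the differences above was not tested.

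Of the lists by function, miR-17-92 and its paralogues, which promote proliferation, had 1 of 10 higher, median log2 difference -0.20. The 2 leading reads of the miR-25 and miR-92 seed lay at -0.011 and -0.03. miRNAs linked to oestrogen action in other tissues had 7 of 16 higher, median log2 difference -0.024, and those linked to implantation had 5 of 21 higher, median log2 difference -0.18. Both lists are led by miR-21 and miR-26. The miR-23, miR-27 and miR-24 cluster had 1 of 3 higher, median log2 difference -0.044, with miR-24 at 3477 and 3637 CPM. miR-210, induced by hypoxia, averaged 1515 and 1155 CPM (-0.39, and -0.11 without sow 9, the highest). The miR-183 cluster had 3 of 4 higher, median log2 difference 0.14, with miR-182 at 1261 and 1419 CPM and miR-183 at 512 and 608 CPM. These lists share members, so their counts are not independent.

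The 3′ ends of the 20 most abundant miRNAs were compared by mean read length, which does not depend on the level. Group means lay between 21.0 and 23.4 nt, and differed between the doses by -0.102 to 0.013 nt, with 15 shorter and 5 longer at 1000 µg/kg/day. The first read group of miR-200b, miR-200c and miR-429 had reads of 22.82, 22.83, 22.74 and 22.76 nt in sows 8 to 11 and 22.71, 22.68, 22.70 and 22.66 nt in sows 12 to 15. Every sow at the higher dose was below every sow at the lower dose, and control sows averaged 22.78 nt. Its p of 0.0286, two-sided and by exact permutation, is the smallest that 4 against 4 sows can give, and it was 0.571 adjusted over the 20 miRNAs, so 0 of 20 passed.

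Reads of 28 to 36 nt were grouped by their first 25 nt, printed in capitals in the most abundant read of the groups described next. The set holds the most abundant tRNA fragment, the tRNA fragments with the smallest p-values, both Y RNA forms and the leading ribosomal fragments. Identities are background knowledge.
glycine tRNA 5′ fragment: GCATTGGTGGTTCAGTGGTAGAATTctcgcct
glycine tRNA 5′ fragment, variant: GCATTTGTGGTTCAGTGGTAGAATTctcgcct
rotated glycine tRNA fragment: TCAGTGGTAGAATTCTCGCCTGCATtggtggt
histidine tRNA 5′ fragment: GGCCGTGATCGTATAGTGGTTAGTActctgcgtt
histidine tRNA fragment: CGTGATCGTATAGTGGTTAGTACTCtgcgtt
Y RNA 5′ fragment, form 1: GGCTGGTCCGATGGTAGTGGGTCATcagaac
Y RNA 5′ fragment, form 2: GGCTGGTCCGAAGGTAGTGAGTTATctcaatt
28S rRNA 5′ fragment: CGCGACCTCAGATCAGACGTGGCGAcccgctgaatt
5S rRNA 3′ fragment, shorter form: CCGCCTGGGAATACCGGGTGCTGTAggctt

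No 28 to 36 nt fragment passed edgeR's test either: 0 of 7462 (0.0%) had an adjusted p under 0.05, and 479 had an unadjusted p under 0.05, 153 higher (2.05%) and 326 lower (4.37%). DESeq2, run on the same 7462, called 22, 2 higher and 20 lower. It gave some no adjusted p, among them the rotated glycine and the histidine fragment printed above and the U2 snRNA T form described below. Its adjusted p was 0.243 for the histidine tRNA 5′ fragment and 0.335 for form 1 of the Y RNA fragment. Of all fragments, 104 (1.39%) were higher and 92 (1.23%) lower in every sow at 1000 than in every sow at 10 µg/kg/day. The median log2 difference was -0.016. Without TMM scaling it was 0.22, and 0.18 when scaled by all deposited reads, and the fragments at an unadjusted p under 0.05 then split 536 higher to 134 lower and 299 to 130, so the differences below are relative to the TMM scale. On simulated counts for this comparison the test found 9% of 100 fragments altered 2-fold and 75% of 100 altered 4-fold, among 7140.

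The 5′ fragment of glycine tRNA, the most abundant 28 to 36 nt group, was lower on average at 1000 µg/kg/day. It stood at 322053, 211303, 215798 and 59316 CPM in sows 8 to 11 and 71765, 65037, 73208 and 132074 CPM in sows 12 to 15. Sows 8, 9 and 10 lay above all 4 sows at the higher dose, and sow 11 below all of them. The means were 202117 ± 108087 CPM at 10 and 85521 ± 31239 CPM at the higher dose (SD, n = 4 and 4), with 132295 ± 20512 in control, between the doses. The log2 difference was -1.24 (95% CI -2.02 to -0.46), with an unadjusted p of 0.0037 and an adjusted p of 0.614 by edgeR, and an adjusted p of 0.0471 by DESeq2. It was -1.90 within length class A (sows 8 and 9 against 12) and -0.08 within class B (sows 10 and 11 against 15), where the lone sow is assumed to vary like the others, and -0.89 with the class as a covariate.

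A variant read of the same fragment, with the substitution G6T counted from the 5′ end, stood at 3537, 2433, 3555 and 938 CPM in sows 8 to 11 and 480.4, 584, 917 and 1160.2 CPM in sows 12 to 15. Sow 15 lay above sow 11, and the 3 other sows at 10 µg/kg/day lay at 2433 CPM or more, above all sows at 1000. As a percentage of the main read it ran from 1.098 to 1.65% at 10, from 0.669 to 1.25% at 1000 µg/kg/day and from 0.670 to 1.16% in control. The log2 difference was -1.73 (95% CI -2.56 to -0.91), with an adjusted p of 0.567 by edgeR and 0.00199 by DESeq2. Another related read is a rotation of the glycine fragment: its first 21 bases are the last 21 of the 32, and its last 11 are the first 11. It was rare, at 14.6, 7.69, 8.07 and 2.81 CPM in sows 8 to 11 and 1.17, 1.15, 1.67 and 1.88 CPM in sows 12 to 15, and lay lower in every sow at 1000 than in any sow at 10 µg/kg/day, with a log2 difference of -2.42 (95% CI -3.58 to -1.26).

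Reads that share 12 bases in a row with the glycine fragment numbered 160 of the 7462 groups, and 158 of them were lower on average at 1000 µg/kg/day, with a median log2 difference of -1.21, beside 3875 lower of all 7462. These groups were picked for shared bases and cannot be counted as independent, and the set was formed after the values were seen. Whether all of them come from the same RNA was not tested. Of the 160, 107 had an unadjusted p under 0.05, beside 479 of all 7462, 326 of them lower (4.37%), and 0 passed. In 2 of the 160 every sow at 1000 lay below every sow at 10 µg/kg/day, beside 92 (1.23%) of all fragments. Without sow 11, the low sow at 10 µg/kg/day, edgeR called 62 fragments, all lower. Of those 62, 49 shared 12 bases with the glycine fragment and 7 with the histidine fragment. Together 56 (90.3%) matched either, beside 186 (2.49%) of all groups tested. Of the 22 fragments called by DESeq2 with all sows, 17 matched. Leaving out any of the other 7 sows gave at most 2 calls.

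The histidine tRNA fragments were less abundant. The 5′ fragment, chosen after its values were seen as the most abundant read that holds 1 with a small p-value, stood at 5353, 3803, 2893 and 722 CPM in sows 8 to 11 and 1233, 2189, 1347 and 1739 CPM in sows 12 to 15. Sow 11 was the lowest and sow 8 the highest of the 8, with a difference of -0.97 (95% CI -1.87 to -0.075). A form that starts inside it stood at 129.8, 85.1, 102 and 58.1 CPM in sows 8 to 11 and 41.0, 41.4, 33.5 and 55.6 CPM in sows 12 to 15. There the doses did not overlap, although sows 11 and 15 lay at 58.1 and 55.6 CPM, and the difference was -1.12 (95% CI -1.67 to -0.57) with an adjusted p of 0.567 by edgeR. Within class A the difference of this form was -1.40, and within class B -0.54. All 26 groups that share 12 bases with the histidine fragment were lower on average (median -1.06), and 0 passed. The doses did not overlap in 1 of the 26, beside 92 (1.23%) lower of all fragments.

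Pieces of the histidine fragment were also 3 of the 5 groups of 18 to 26 nt with the smallest p-values. They are printed with the 18 shared bases in capitals, beside the fifth, whose identity is not established.
histidine tRNA short read 1: TATAGTGGTTAGTACTCTgcgtt
histidine tRNA short read 2: TAGTGGTTAGTACTCTGCgtt
histidine tRNA short read 3: ATAGTGGTTAGTACTCTGcgtt
unassigned short read: GTGGAATTCAAGTATTCTgagt

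The first of them had 89.9, 51.9, 53.2 and 31.1 CPM in sows 8 to 11 and 14.6, 22.8, 21.3 and 29.5 CPM in sows 12 to 15. Every sow at 1000 lay below every sow at 10 µg/kg/day, by a narrow gap between sows 15 and 11, and the log2 difference was -1.34 (95% CI -1.96 to -0.73) with an adjusted p of 0.526 by edgeR. The other 2 averaged 328 and 126 CPM (-1.38) and 58.6 and 22.8 CPM (-1.33), and in both sow 15 lay above sow 11. In the order printed, the histidine short reads had differences of -2.27, -2.42 and -1.98 within length class A. Within class B these were -0.51, -0.34 and -0.22. The unassigned read had 24.7, 28.3, 27.6 and 25.7 CPM in sows 8 to 11 and 12.5, 11.8, 11.5 and 19.8 CPM in sows 12 to 15. All sows at 10 lay above all sows at 1000 µg/kg/day, with a difference of -0.91 (95% CI -1.39 to -0.44) and an adjusted p of 0.96 by edgeR.

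Scaled to all deposited reads instead (RPM), exact pieces of the glycine fragment of 18 to 26 nt stood at 1068, 577, 1081 and 758 RPM in sows 8 to 11 and 385, 379, 388 and 929 RPM in sows 12 to 15. Sow 15 was with the 10 µg/kg/day sows, and sows 12, 13 and 14 lay below all others. Its reads of 28 to 36 nt stood at 54304, 28749, 19709 and 7155 RPM in sows 8 to 11 and 10813, 8115, 10629 and 15801 RPM in sows 12 to 15, with sow 11 the lowest. Control sows averaged 823 and 21301 RPM in the 2 size classes. Reads of 28 to 36 nt were 21.1 to 27.9% of the library in the 3 class A sows, 12.97 to 14.8% in class B and 17.3 to 17.7% in class C, and the part of the class in these RPM values was not tested.

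The 5′ fragments of Y RNAs, small RNAs bound by the Ro60 protein, lay on the other side. The more abundant form had 16834, 28779, 17741 and 13725 CPM in sows 8 to 11 and 23868, 47619, 32023 and 20260.4 CPM in sows 12 to 15. Sows 13 and 14, both of length class C, lay above all sows at 10 µg/kg/day, and sows 12 and 15 within their range. The difference was 0.68 (95% CI 0.055 to 1.31) with an adjusted p of 0.744 by edgeR, and 0.19 with the class as a covariate, 0.066 within class A and 0.35 within class B. The second form, named after its values were seen because it shares the first 10 bases, averaged 2225 ± 844 and 3616 ± 1603 CPM, a difference of 0.70. It was 0.36 without sow 13, 0.35 with the class as a covariate, 0.44 within class A and 0.18 within class B. Without TMM scaling the differences of both forms were 0.97 and 0.98, and scaled by all deposited reads 0.88 and 0.93. Of 58 groups with 12 bases of the more abundant form, 54 were higher on average (median 0.63), and 0 passed. The doses overlapped in all 58, beside 104 (1.39%) of all fragments that were higher without overlap.

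Among ribosomal fragments, the 5′ end of 28S rRNA had 26737, 22993, 28495 and 31228 CPM in sows 8 to 11 and 33198, 28456, 33956 and 30988 CPM in sows 12 to 15. The groups overlapped and the difference was 0.21 (95% CI -0.19 to 0.61). The 3′ end of 5S rRNA gave 4 of the 10 most abundant groups, nested forms that start at nearby bases, with differences of -0.48, -0.34, -0.49 and -0.31. The form printed above had 45979, 42647, 71394 and 54812 CPM in sows 8 to 11 and 41111, 19383, 32851 and 60834 CPM in sows 12 to 15. Sows 12, 13 and 14 lay below every sow at 10 µg/kg/day, and sow 15 lay within the range of that group. With the length class as a covariate the difference of this form was -0.16. A further 2 of the 10 most abundant, whose identity is not established, averaged 12084 and 8761 CPM (-0.46) and 8725 and 11128 CPM (0.35, and 0.08 without sow 12). The 9 of the 10 that are described here together held 41.6, 36.97, 38.5 and 27.3% of 28 to 36 nt reads in sows 8 to 11 and 30.2, 25.5, 27.5 and 33.8% in sows 12 to 15.

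**Figure D4:**
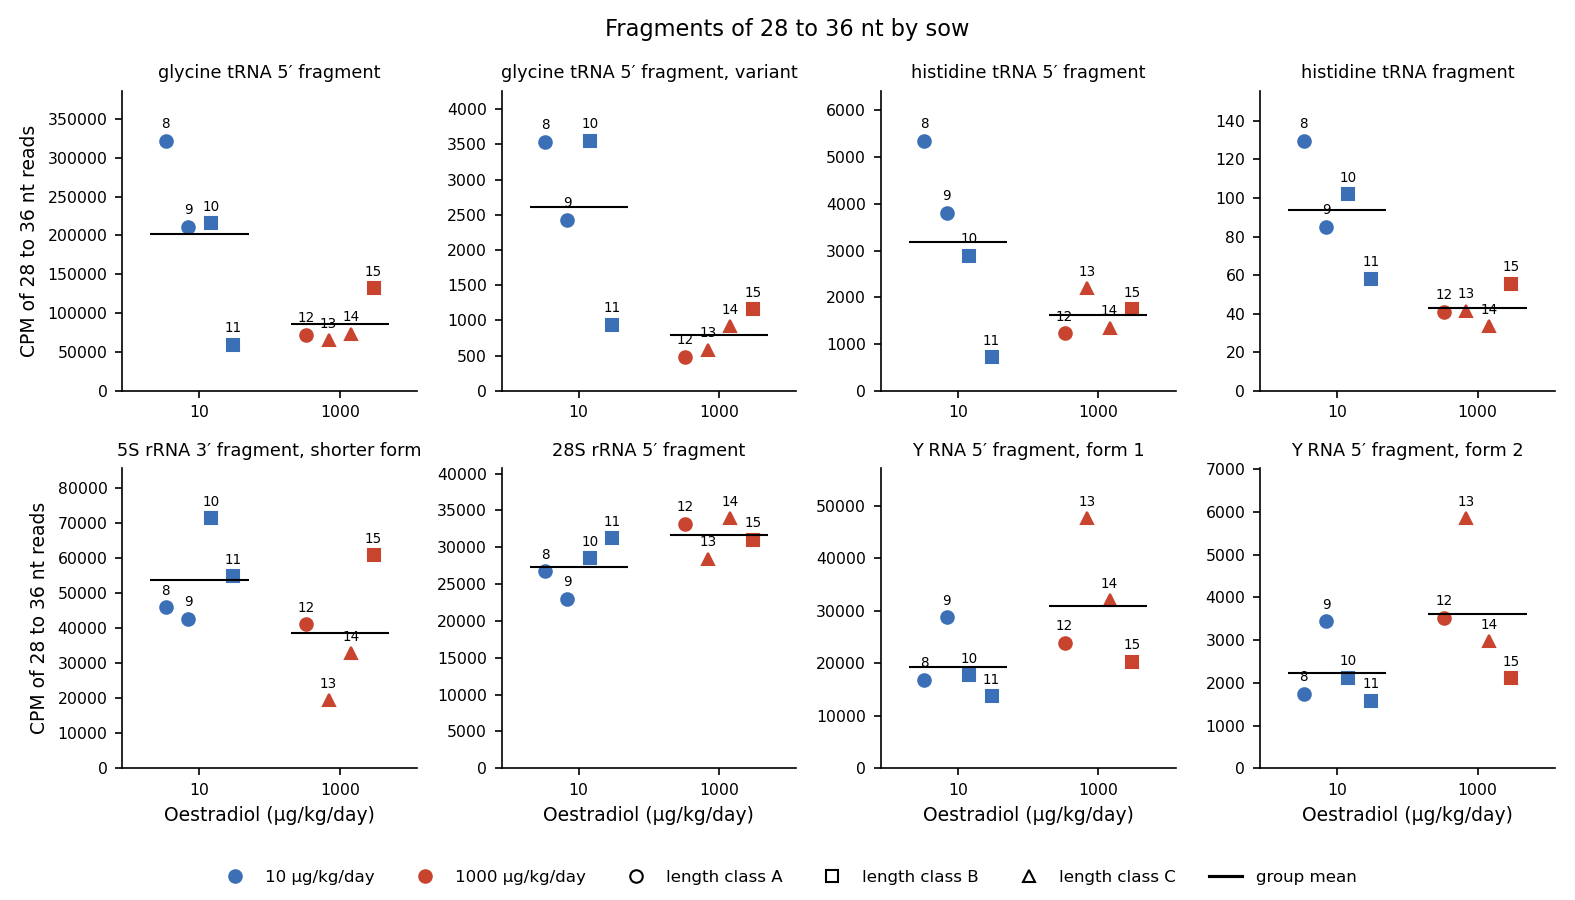
TMM-scaled CPM of 28 to 36 nt reads (vertical axis, from 0) for 8 fragments in each sow at 10 and 1000 µg/kg/day (horizontal axis). Numbers are sows, symbols the length class and lines the group mean. In both glycine panels and that of the histidine 5′ fragment sow 11 sits apart from sows 8 to 10 and within or below the 1000 µg/kg/day group, in that of the other histidine fragment it lies just above sow 15, and in the Y RNA panels sow 13 is the highest.

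The other fragments with small p-values came from U2 snRNA, a core RNA of the spliceosome. One of them starts with a base that varies between sows, and another starts just after it. The most abundant reads that span the base in its C form and in its T form are printed with it in capitals.
U2 snRNA, C form: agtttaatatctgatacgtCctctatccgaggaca
U2 snRNA, T form: Tctctatccgaggacaatatatt

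Reads with this C-to-T change made up 9.72% of the reads over the site in sow 8 (392 of 4033), 11.7% in sow 10 (194 of 1657) and 13.3% in sow 11 (250 of 1873). In sow 9, also at 10 µg/kg/day, the share was 0.294%, and in the 4 sows at 1000 it ran from 0.147 to 0.353%. Control sows had 0.158 to 0.481%. The lower end of the 95% Wilson interval of sow 8 was 8.84%, and the highest upper end among sow 9 and the 1000 µg/kg/day sows was 0.905%. Reads in which the site is at base 10 or later, away from the read's 5′ end, gave 5.80, 3.94 and 4.74% in sows 8, 10 and 11 and at most 0.274% in the others of the 8. The 28 to 36 nt group that starts with the T had 8.11, 0, 12.1 and 13.1 CPM in sows 8 to 11 and 0 in sows 12 to 15. A U2 group that starts at the base after the site had 186, 81.0, 182 and 185 CPM in sows 8 to 11 and 56.2, 75.9, 84.5 and 69.7 CPM in sows 12 to 15, so here too sow 9 was with the higher dose. Its reads do not hold the variable base, and whether its level goes with the T form was not tested. Its log2 difference was -1.15 (95% CI -1.67 to -0.64), with an adjusted p of 0.567 by edgeR and 0.00199 by DESeq2. The T form of 18 to 26 nt had 4.16, 0, 3.87 and 4.53 CPM in sows 8 to 11 and at most 0.082 in sows 12 to 15. The pattern separates 3 sows from the other 12 and not 1 dose from the other.

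**Figure D5:**
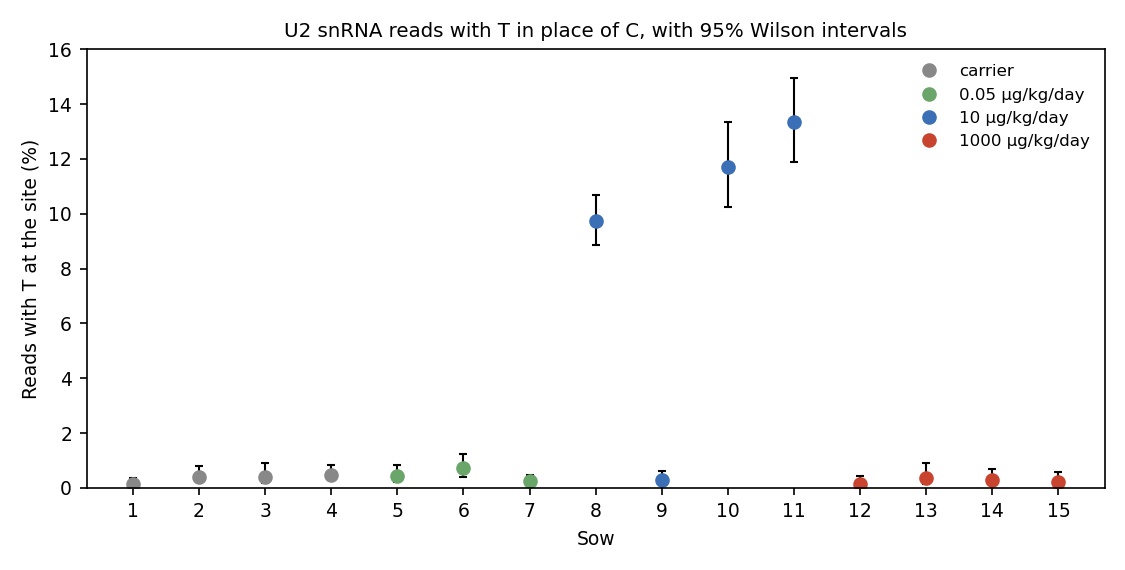
Share of reads over the U2 snRNA site that carry T (%, vertical axis) in each of the 15 sows (horizontal axis), coloured by dose, with 95% Wilson intervals for counting error only. Sows 8, 10 and 11 at 10 µg/kg/day lie between 9.72 and 13.3%, and the other 12 sows at 0.712% or less.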

How the data were processed

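Endometrial RNA was extracted with TRIzol and turned into libraries with a NEBNext small RNA kit, per the labels' protocols. The authors deposited raw read counts, 1 count per distinct read of 17 to 49 nt, without normalization, as the values show. The submitters' processing notes name GRCm38, UMD3.1, GRCh37.p5 and Sscrofa10.2 as builds, and FastQC, and an aligner is not given in the sources used here. Reads were not mapped.

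Reads of 18 to 26 nt were grouped by their first 18 nt and reads of 28 to 36 nt by their first 25 nt. Groups with at least 30 reads were kept, and the filterByExpr step of edgeR left 11123 of 26704 and 7462 of 15923, with 93.8 and 88.2% of the reads. The 2 libraries of sow 7 were summed, which left 15 sows. No miRNA sequence table was used here, so the planned counts per mature miRNA were not formed. A leading miRNA group has a listed seed and holds at least 5% of its family's reads. It is no 1-base variant of a group at least 20 times as abundant and no shifted copy of one at least 10 times as abundant. A further 11 groups without a known miRNA sequence were set aside by eye.

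edgeR 4.0.16 fitted a robust quasi-likelihood model with TMM scaling over all 15 sows. A call needed a Benjamini-Hochberg adjusted p under 0.05. CPM is relative to the reads of a size class, and RPM to the whole library. The script was tested on simulated data. Single values per sow were tested by exact permutation. Wilson intervals cover counting error only. Named are the 20 most abundant miRNAs, the 10 with the smallest p, 2 of each list, the 10 most abundant fragments, of which 1 is not reported here, and the 5 fragments and 5 read groups with the smallest p. The members, lists and tests were chosen with earlier results of these data known. Alternatives were DESeq2 1.42.0, other scalings and filters, the 8 libraries alone, the length class as a covariate, exact reads and leaving out each sow. Fits within 1 length class were added after seeing the data.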

Additional observations from a re-analysis of the deposited data

Results flagged for a closer look

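Of 154 groups of 4 sows examined, 1 per dose and named feature or measure, 8 held a sow whose distance to its nearest neighbour was most of the group's range. Chance alone gives about 1 in 20 such groups.

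At 10 µg/kg/day, sow 11 had 6903 CPM of miR-199-3p, known from stroma, against 10777 to 11124 CPM in the 3 others. Sow 9 had 81.0 CPM of the U2 snRNA fragment that starts after the variable base, against 182 to 186, and 0 CPM of the short U2 read in its T form, against 3.87 to 4.53.

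Sow 15 stood apart 4 times at 1000 µg/kg/day. It had 132074 CPM of the glycine tRNA 5′ fragment, against 65037 to 73208 in the 3 others, and 38.8 CPM of the third short histidine tRNA read, against 15.3 to 19.04. Its unassigned short read was at 19.8 CPM, against 11.5 to 12.5. Its short U2 read in the T form was flagged at 0.082 CPM, a level next to zero, against 0 in the others. Sow 12 had 16824 CPM of the second unassigned 28 to 36 nt fragment, against 8521 to 9926. Sow 15 is the only sow of length class B at this dose.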

How the results depend on the processing

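No paired analysis was possible because the sows of the 2 doses share no replicate number. The alternatives per mature miRNA were not run, since no mature sequences were used here. The number of 18 to 26 nt groups called, 0, was 8 within length class B (6 higher and 2 lower) and ranged from 0 to 3 when 1 sow was left out (2 without sow 9, 3 without sow 15, all lower). The number of fragments called, 0, was 22 by DESeq2, 1 in class A sows alone and 7 in class B sows alone (2 higher and 5 lower), and it ranged from 0 to 62 when 1 sow was left out (2 without sow 9, 62 without sow 11, all lower). The class A and class B fits each have 1 sow at 1000 µg/kg/day. The other scalings and filters, the 8 libraries alone and the class covariate gave 0 calls in both size classes, DESeq2 and class A gave 0 for 18 to 26 nt groups, and exact reads, run for fragments, gave 0.

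Small differences changed sign. With the length class as a covariate, miR-143 was at -0.43, miR-99 and miR-100 at -0.14, miR-30 at -0.066, miR-24 at -0.28, miR-1 and miR-206 at -0.43, miR-144 at -0.31 and miR-122 at -0.13. Without TMM, miR-27 was at 0.0496, miR-26 at 0.067, miR-34 and miR-449 at 0.0071, miR-126-3p at 0.095 and the 2 reads of the miR-25 and miR-92 seed at 0.082 and 0.086. Scaled by all deposited reads, miR-26 was at 0.00088, miR-34 and miR-449 at 0.069, miR-126-3p at 0.061 and the same 2 reads at 0.027 and 0.031. By DESeq2, miR-126-3p was at 0.0019 and the first of these reads at 0.0022. The cause was not tested.

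When 1 sow was left out, the log2 difference ranged from -0.41 to 0.36 for miR-143, from -0.19 to 0.081 for miR-27, from -0.16 to 0.13 for miR-26 and from -0.13 to 0.41 for miR-30. The let-7 reads 1, 3, 4 and 5 ranged from -0.39 to 0.0501, from -0.11 to 0.23, from -0.071 to 0.20 and from -0.29 to 0.013. miR-200a and miR-141 ranged from -0.14 to 0.34, miR-34 and miR-449 from -0.34 to 0.21, miR-199-3p from -0.40 to 0.0091, miR-126-3p from -0.24 to 0.17 and miR-126-5p from -0.29 to 0.074. miR-24 ranged from -0.15 to 0.23, the 2 reads of the miR-25 and miR-92 seed from -0.10 to 0.075 and from -0.15 to 0.11, miR-9 from -0.36 to 0.00699, miR-205 from -0.27 to 0.36, miR-1 and miR-206 from -0.30 to 0.83, the second miR-146 read from -0.20 to 0.91 and miR-144 from -0.43 to 0.58.

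The difference in library composition, 1000 minus 10 µg/kg/day in percentage points, ranged from -0.588 to 3.06 for reads of 17 to 19 nt, from -7.71 to 2.48 for 18 to 26 nt, from -6.80 to 1.69 for 20 to 24 nt, from -3.16 to 1.82 for 28 to 36 nt, from -0.25 to 3.90 for 40 to 49 nt and from -4.43 to 1.75 for reads with a listed seed. The shallowest library held 4497096 reads, and 12% of simulated 2-fold changes in 18 to 26 nt groups and 9% in fragments were called.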
